A study of Mus musculus with 10 samples.

Results

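The genes described here make cholesterol or restrain its making: *Hmgcs1*, *Idi1*, *Fdps*, *Fdft1*, *Sqle*, *Lss*, *Cyp51* and *Insig1*. They were chosen by symbol and not by a rule on measured values, although earlier results of these data were known. 7 of these 8 genes were among the 15900 genes of the hippocampal expression table, and *Hmgcs1* was not analysed here. None of the 7 differed between groups with an adjusted p of at most 0.05 by limma. Of all genes tested, 0% to 5.66% did so, depending on the comparison. The largest difference from pre-SE mice was that of *Cyp51* at 6 h after status epilepticus (SE). There both mice exceeded the higher of the pre-SE mice, as they did in 18.6% of all genes tested.

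Whole hippocampi of 10 male ICR mice, an outbred stock, were examined by cap analysis of gene expression (CAGE), which sequences the capped 5′ ends of transcripts and so counts starts of transcription. Pre-SE mice were labelled untreated, while the methods describe control mice that received saline in place of pilocarpine (PILO). The mice of the SE 6 h and SE 2 days groups were given methyl scopolamine and then PILO, a muscarinic agonist that induces prolonged seizures, at 9 to 10 weeks of age, and their seizures were ended with diazepam. The mice of the SE + LEV 6 h and SE + LEV 2 days groups were treated in the same way and also received levetiracetam (LEV), an antiseizure drug that binds the synaptic vesicle protein SV2A, by mouth after diazepam, 1 time before sampling at 6 h and 5 times before sampling at 2 days. In comparisons with pre-SE mice, effects of the seizures and of the drugs given around them cannot be told apart. Each group held 2 mice, numbered replicate 1 and replicate 2. Values are CPM, the tags on a gene scaled to the same total of tags in every mouse, and from the steps between values the libraries were estimated to hold 10540696 to 51710969 tags. The fewest tags behind any value of these 7 genes were an estimated 96, for *Lss* in replicate 2 of SE + LEV 6 h, where counting error alone would give a coefficient of variation of 10.2%. In whole tissue, fewer cells of a type and less RNA per cell cannot be told apart.

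Cells build cholesterol from acetyl-CoA through mevalonate, isoprenoid diphosphates, squalene and lanosterol. The brain makes nearly all of its own cholesterol, since lipoproteins of the blood do not cross the blood−brain barrier, and oligodendrocytes and astrocytes make much of it. When sterols in the endoplasmic reticulum run low, SCAP carries the transcription factor SREBP-2 to the Golgi, where it is cut and freed to raise the transcription of genes of the pathway. INSIG1, itself encoded by a target of this factor, holds SCAP back when sterols are plentiful.

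The windows from 250 bases before to 50 bases after the start of transcription, as RefSeq gives them, are shown for the 4 of the 7 genes for which a window was at hand, since CAGE tags mark the transcription that begins in such windows, and each was placed in mm9 by its own sequence. Capitals mark the letters CCAAT, the core of the NF-Y site, and GGGCGG, the core of the Sp1 site, on either strand, so that ATTGG and CCGCCC are matches on the opposite strand.
*Cyp51* (chr5:4104648-4104947, minus strand): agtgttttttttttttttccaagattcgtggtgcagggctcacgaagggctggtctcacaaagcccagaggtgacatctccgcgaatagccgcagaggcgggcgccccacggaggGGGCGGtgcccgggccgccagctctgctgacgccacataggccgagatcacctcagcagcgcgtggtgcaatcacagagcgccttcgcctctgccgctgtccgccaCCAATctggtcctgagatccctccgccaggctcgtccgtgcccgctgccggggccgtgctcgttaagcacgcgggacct
*Insig1* (chr5:28397702-28398001, plus strand): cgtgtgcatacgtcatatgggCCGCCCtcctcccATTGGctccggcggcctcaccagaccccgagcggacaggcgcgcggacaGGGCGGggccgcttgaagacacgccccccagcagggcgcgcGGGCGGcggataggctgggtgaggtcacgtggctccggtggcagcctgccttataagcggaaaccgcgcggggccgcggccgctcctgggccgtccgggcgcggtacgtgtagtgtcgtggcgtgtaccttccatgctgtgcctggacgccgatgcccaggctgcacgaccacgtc
*Idi1* (chr13:8884602-8884901, plus strand): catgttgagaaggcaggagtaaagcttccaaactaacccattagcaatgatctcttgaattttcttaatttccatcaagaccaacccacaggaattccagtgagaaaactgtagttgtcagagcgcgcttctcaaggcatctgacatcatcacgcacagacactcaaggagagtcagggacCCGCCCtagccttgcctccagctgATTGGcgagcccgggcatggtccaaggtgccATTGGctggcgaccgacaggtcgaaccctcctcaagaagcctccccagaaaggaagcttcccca
*Lss* (chr10:75994100-75994399, plus strand): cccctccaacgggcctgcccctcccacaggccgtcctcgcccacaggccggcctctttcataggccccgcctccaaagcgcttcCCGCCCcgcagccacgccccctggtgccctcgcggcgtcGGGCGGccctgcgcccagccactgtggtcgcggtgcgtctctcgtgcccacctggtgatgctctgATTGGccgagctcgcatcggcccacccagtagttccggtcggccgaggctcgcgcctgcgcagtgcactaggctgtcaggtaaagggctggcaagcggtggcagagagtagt
Both motifs were found in each of these windows. The *Cyp51* window held CCAAT 29 bases and GGGCGG 135 bases before its RefSeq start. That start lay 49 bases from the nearest annotated *Cyp51* start in mm9, inside the gene as annotated. This CCAAT therefore also fell inside the annotated gene. In all 32851 RefSeq windows of this length, 37.4% held CCAAT and 35.7% held GGGCGG. The letters TCACNCCAC, a core of the sterol response element bound by SREBP, were in 1.24% of all windows and in none of these 4. The RefSeq window of *Hmgcs1*, which was not placed in mm9 and is not shown, held them 137 bases before the start. The letters CACGTG and TGACGT, which share ACGT, were in 7.15% and 7.51% of all windows, and of the 4 shown only that of *Insig1* held them. These matches describe letters and not binding.

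The early enzymes join small isoprenoid units. *Idi1* encodes isopentenyl diphosphate isomerase, which interconverts the isoprenoid units that are then joined (chromosome 13, 8884852 to 8891641 in mm9, plus strand, ENSMUSG00000058258). It was at 26.1 and 34.8 CPM in the pre-SE mice, 51.0 and 26.7 in SE 6 h, 42.9 and 20.3 in SE + LEV 6 h, 28.3 and 52.2 in SE 2 days, and 42.7 and 18.9 in SE + LEV 2 days. In every group apart from pre-SE, the mice differed by 1.85-fold to 2.25-fold, and all 5 groups overlapped their neighbours in the order of means. *Fdps* encodes farnesyl diphosphate synthase, whose product is the branch point towards sterols, ubiquinone, dolichol and prenylated proteins (chromosome 3, 88897514 to 88905881, minus strand, ENSMUSG00000059743). It was at 28.2 and 31.1 CPM in pre-SE, 22.3 and 28.9 in SE 6 h, 28.7 and 24.0 in SE + LEV 6 h, 31.4 and 44.8 in SE 2 days, and 39.9 and 34.3 in SE + LEV 2 days. *Fdps* had the closest mice of the 7 genes, with a within-group SD of 0.231 on the log2(CPM + 0.1) scale. Its mice at 2 days, with or without LEV, were all above the mice of the other 3 groups. The gap was small, since the lowest of them was at 31.4 CPM beside 31.1 in the higher pre-SE mouse.

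*Fdft1* and *Sqle* take the pathway into sterols. *Fdft1* encodes squalene synthase, the first enzyme committed to sterols (chromosome 14, 63763990 to 63796630, minus strand, ENSMUSG00000021273). It was at 33.4 and 61.9 CPM in pre-SE, 46.8 and 75.0 in SE 6 h, 40.1 and 59.3 in SE + LEV 6 h, 65.5 and 86.2 in SE 2 days, and 77.5 and 58.0 in SE + LEV 2 days. Its order of means ran from SE 2 days down to pre-SE, and each group overlapped the next. *Fdft1* overlaps *Ctsb* on the opposite strand, a cathepsin gene at 233.67 to 644.9 CPM here, and whether the tags were assigned by strand is not given in the sources used here. *Sqle* encodes squalene epoxidase, a rate-limiting enzyme of the later pathway (chromosome 15, 59146632 to 59162747, plus strand, ENSMUSG00000022351). It was at 43.1 and 58.65 CPM in pre-SE, 68.9 and 84.1 in SE 6 h, 59.7 and 51.6 in SE + LEV 6 h, 52.4 and 124 in SE 2 days, and 68.2 and 51.5 in SE + LEV 2 days. Both SE 6 h mice were above both mice of pre-SE and of each SE + LEV group, whereas the SE 2 days mice lay 2.36-fold apart and enclosed the SE 6 h mice.

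The lanosterol enzymes stood apart from each other. *Lss* encodes lanosterol synthase, which closes the sterol rings (chromosome 10, 75994333 to 76019883, plus strand, ENSMUSG00000033105). It was at 15.9 and 10.9 CPM in pre-SE, 15.4 and 10.7 in SE 6 h, 13.7 and 9.11 in SE + LEV 6 h, 9.71 and 14.4 in SE 2 days, and 15.0 and 11.2 in SE + LEV 2 days. *Lss* was the flattest of the 7, with an SD of group means of 0.101 against 0.374 between mice of a group on the log2(CPM + 0.1) scale. *Cyp51* encodes lanosterol 14α-demethylase, the cytochrome P450 that begins the trimming of lanosterol (chromosome 5, 4081145 to 4104746, minus strand, ENSMUSG00000001467). It was at 33.3 and 44.2 CPM in pre-SE, 82.0 and 76.7 in SE 6 h, 55.6 and 44.2 in SE + LEV 6 h, 47.8 and 82.6 in SE 2 days, and 64.5 and 47.8 in SE + LEV 2 days. The SE 6 h mice lay within 1.07-fold of each other and above both mice of pre-SE, SE + LEV 6 h and SE + LEV 2 days, with 1 SE 2 days mouse above them. In the order of *Cyp51* means, from SE 6 h through SE 2 days, SE + LEV 2 days and SE + LEV 6 h to pre-SE, every neighbouring pair of groups overlapped.

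*Insig1*, which encodes the sterol-dependent retention protein of SCAP (chromosome 5, 28397952 to 28405201, plus strand, ENSMUSG00000045294), varied mainly between mice. It was at 40.9 and 81.9 CPM in pre-SE, 51.5 and 87.2 in SE 6 h, 56.1 and 61.3 in SE + LEV 6 h, 69.2 and 86.6 in SE 2 days, and 89.3 and 40.1 in SE + LEV 2 days. The SE + LEV 2 days mice held both the lowest and the highest *Insig1* value of all 10 mice.

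**Figure D1:**
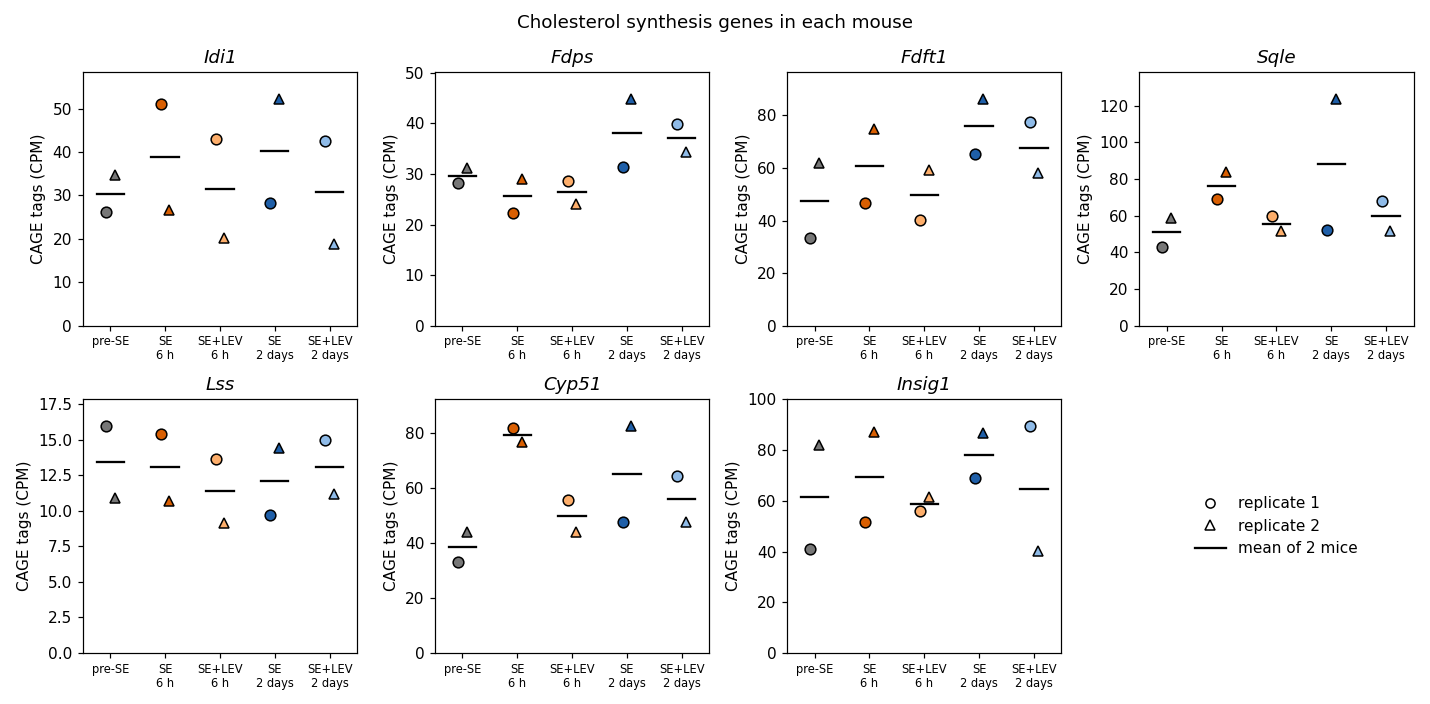
CAGE tags (CPM, linear axes from 0) of the 7 cholesterol synthesis genes in each of 10 mice; circles are replicate 1, triangles replicate 2 and bars the mean of 2 mice. In *Cyp51* both SE 6 h mice sit at 76.7 to 82.0 CPM, above both pre-SE mice at 33.3 and 44.2, while in *Lss* and *Idi1* the groups overlap.

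To ask how mice after SE differed from pre-SE mice, the groups were compared with limma on log2(CPM + 0.1), in 1 model of all 10 mice. The p-values were adjusted by Benjamini-Hochberg over the 15851 genes that reached 0.1 CPM in 2 mice or more. All 7 genes passed this filter. Differences (logFC) are on this log2 scale, and p-values measure only the spread among these mice. At 6 h after SE, 0 of the 7 genes were called at an adjusted p of at most 0.05, against 2.96% of all genes tested, and 1 had an unadjusted p under 0.05 and a higher level, as had 9.21% of all genes. *Cyp51* was this gene, with 2.07-fold more tags than in pre-SE mice (logFC 1.05, SE of the estimate 0.30, 95% interval 0.38 to 1.71) and an adjusted p of 0.107 by limma with Benjamini-Hochberg adjustment. Over the other settings, single mice left out included, its adjusted p by limma ran from 0.0885 to 0.382 and its logFC from 0.84 to 1.25. The logFC of *Sqle* was 0.60 (95% interval −0.22 to 1.41), and both of its SE 6 h mice were also above both pre-SE mice. Groups were set apart upwards in this way in 2 of the 7 genes and in 18.6% of all genes tested. The other logFC were 0.38 for *Fdft1*, 0.29 for *Idi1*, 0.21 for *Insig1*, −0.04 for *Lss* and −0.22 for *Fdps*. The median of the 7 was 0.29, beside a median of −0.13 over all genes. When the libraries were rescaled by the median of gene-wise ratios, these medians became 0.42 and −0.0047, and *Lss* turned from −0.04 to 0.09.

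At 2 days after SE, 0 of the 7 genes were called, against 5.66% of all genes tested, and 1, again *Cyp51*, was higher with an unadjusted p under 0.05, as were 12.5% of all genes. *Cyp51* had a logFC of 0.71 (SE of the estimate 0.30, 95% interval 0.04 to 1.38) with an adjusted p of 0.222 by limma with Benjamini-Hochberg adjustment. *Fdft1* gave the largest logFC, 0.72 (95% interval −0.08 to 1.52), followed by *Cyp51* and *Sqle* at 0.68, *Insig1* at 0.42, *Idi1* at 0.35, *Fdps* at 0.34 and *Lss* at −0.15. In *Fdft1*, *Cyp51* and *Fdps* both SE 2 days mice exceeded both pre-SE mice, as they did in 26.3% of all genes tested. The gaps in 2 of these genes were small, since the lower SE 2 days mouse was at 47.8 CPM of *Cyp51* beside 44.2 in the higher pre-SE mouse, and at 31.4 CPM of *Fdps* beside 31.1. The median logFC of the 7 genes was 0.42, beside −0.03 over all genes. The logFC of *Sqle* rested on replicate 2 of SE 2 days and ran from 0.06 to 1.29 over the alternatives, which left out single mice. Those of *Fdft1*, *Cyp51* and *Fdps* ran from 0.28 to 1.17, 0.32 to 1.10 and 0.084 to 0.60, so that the order of these genes was not settled. SE 2 days and SE 6 h are compared with the same pre-SE mice, so their values are set side by side here and are not independent. Between SE 2 days and SE 6 h mice, 0 of the 7 genes were called, against 4.25% of all genes, and the median logFC was 0.08 beside 0.09 over all genes (−0.02 beside −0.01 after the rescaling above). *Fdps* had the largest of these logFC, 0.56 (95% interval −0.02 to 1.14), and was the only one of the 7 with both SE 2 days mice above both SE 6 h mice, which was so in 31% of all genes.

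To ask whether LEV altered the genes after SE, the SE + LEV mice were compared with the SE mice of the same time, so that each SE group also serves in a comparison above. At 6 h, 0 of the 7 genes were called with LEV, against 0.0126% of all genes tested. *Cyp51* was again the largest difference and the only one with an unadjusted p under 0.05, as were 3.42% of all genes in the lower direction. The SE + LEV 6 h mice, at 55.6 and 44.2 CPM, were both below the SE 6 h mice, at 82.0 and 76.7. Its logFC was −0.68 (SE of the estimate 0.30, 95% interval −1.35 to −0.01), with an adjusted p of 1 by limma with Benjamini-Hochberg adjustment. *Sqle* had a logFC of −0.45 (95% interval −1.27 to 0.36), and its SE + LEV 6 h mice were likewise both below the SE 6 h mice. Groups were set apart downwards in 2 of the 7 genes and in 13.4% of all genes. The logFC of the other genes were −0.32 for *Idi1*, −0.28 for *Fdft1*, −0.20 for *Lss*, −0.19 for *Insig1* and 0.05 for *Fdps*, and the median of the 7 was −0.28 beside 0.04 over all genes. Against pre-SE mice, the SE + LEV 6 h mice had a *Cyp51* logFC of 0.37 (95% interval −0.30 to 1.04) and a median logFC of the 7 genes of 0.02, with 0 of them called beside 0.322% of all genes.

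At 2 days with LEV, 0 of the 7 genes were called against SE 2 days mice, as were 0% of all genes tested, and 0 of the 7 had an unadjusted p under 0.05 beside 1.31% of all genes higher and 1.39% lower. The logFC were −0.44 for *Sqle*, −0.43 for *Idi1*, −0.37 for *Insig1*, −0.18 for *Cyp51*, −0.16 for *Fdft1*, −0.02 for *Fdps* and 0.13 for *Lss*. In all 7 genes the SE + LEV 2 days mice overlapped the SE 2 days mice, whereas the groups were set apart upwards in 15.2% and downwards in 12.2% of all genes, and each of these logFC changed sign when 1 of the 4 mice was left out. Their median was −0.18, beside 0.04 over all genes. Against pre-SE mice, the SE + LEV 2 days mice had a median logFC of 0.24 and 0 of the 7 genes called, beside 2.85% of all genes. *Cyp51*, at 0.53, and *Fdps*, at 0.32, had both SE + LEV 2 days mice above both pre-SE mice, as had 22.6% of all genes. The SE + LEV 2 days mice compared with the SE + LEV 6 h mice gave a median logFC of 0.16, and 0 of the 7 genes were called beside 2.14% of all genes. The difference between the LEV effects at 2 days and at 6 h was itself tested, with 0 of the 7 called and 0 at an unadjusted p under 0.05, beside 0% of all genes called and, without adjustment, 1.58% higher and 0.795% lower. For *Cyp51* it was 0.50 (95% interval −0.45 to 1.44).

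**Figure D2:**
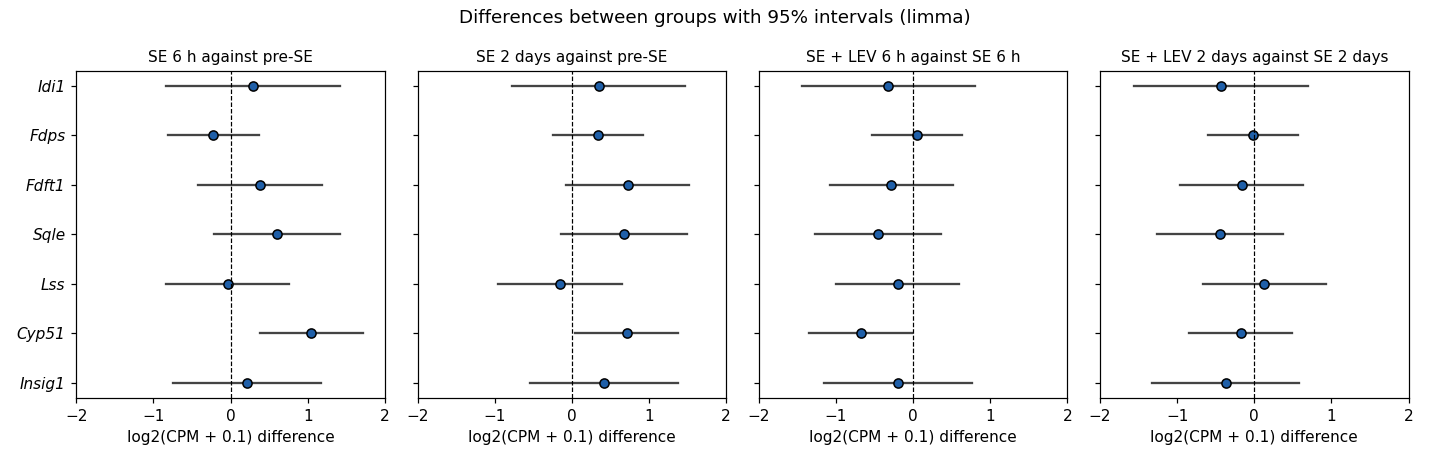
Differences between groups (logFC, log2(CPM + 0.1) scale) for each of the 7 genes in 4 comparisons; points are limma estimates and lines their 95% intervals, with 2 mice in each group. The interval of *Cyp51* lies above 0 at both times after SE and below 0 for SE + LEV 6 h against SE 6 h, and at adjusted p none of the 28 differences was called.

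The spread between mice of a group is set beside that of group means, although means of 2 mice vary less than single mice. The SD between mice of a group exceeded the SD of the group means, both on the log2(CPM + 0.1) scale, for *Idi1* (0.658 against 0.2), *Insig1* (0.551 against 0.177), *Sqle* (0.449 against 0.293), *Fdft1* (0.436 against 0.304) and *Lss* (0.374 against 0.101). For *Cyp51* (0.331 against 0.389) and *Fdps* (0.231 against 0.266) it was the smaller of the pair. To show what the 7 genes shared, each was centred on its mean over the 10 mice and the 7 were averaged in each mouse. This mean was −0.40 and −0.0066 in pre-SE, 0.08 and 0.16 in SE 6 h, −0.05 and −0.30 in SE + LEV 6 h, −0.10 and 0.57 in SE 2 days, and 0.32 and −0.28 in SE + LEV 2 days. The mice within SE 2 days and within SE + LEV 2 days were 0.672 and 0.601 apart, and the pre-SE mice 0.393. Replicate 2 of SE 2 days and replicate 1 of SE + LEV 2 days were the mice in which all 7 genes were above their own means.

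Across the 10 mice the genes did not all run together. Over the 21 pairs of genes, Pearson's r had a median of 0.5 and ran from −0.339 for *Fdft1* with *Lss* to 0.866 for *Sqle* with *Cyp51*. *Fdft1* and *Insig1* gave 0.797, *Idi1* and *Lss* gave 0.659, and 11 of the pairs exceeded 0.5. These coefficients describe 10 libraries in which the genes shared depth, tissue sample and group, and they carry no test.

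Genes whose pattern over the 10 mice was most like the mean of the 7 were sought among the 11966 other genes with a mean of at least 5 CPM. Of the 10 most like, *Cct8*, *Pdcd6*, *F8a*, *Prosc*, *Hmga1*, *Igfbp3*, *Zfp593*, *Cd24a* and *Ubash3b* are given here, with Pearson's r from 0.899 to 0.947. *Cct8*, which encodes a subunit of the chaperonin that folds actin and tubulin, was at 231.2 and 254.3 CPM in pre-SE, 273.5 and 279.8 in SE 6 h, 237.7 and 220.4 in SE + LEV 6 h, 240.8 and 339.4 in SE 2 days, and 274.1 and 225.9 in SE + LEV 2 days. Its highest mouse, replicate 2 of SE 2 days, was also the mouse with the highest mean of the 7 genes. Of the other genes of sterol synthesis and transport, *Stard4*, a sterol carrier, ranked 11 (r = 0.896), *Sc4mol*, a sterol methyl oxidase, ranked 31 (r = 0.864) and *Hsd17b7*, a sterol ketoreductase, ranked 65 (r = 0.828), whereas *Srebf2* ranked 1154 (r = 0.558). The least like were *Ehmt1*, *Wdr48*, *Ttc9c*, *Rnf8* and *Ttc33*, with r from −0.95 to −0.97. These are descriptions over 10 libraries that share the group structure, chosen from many genes.

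**Figure D3:**
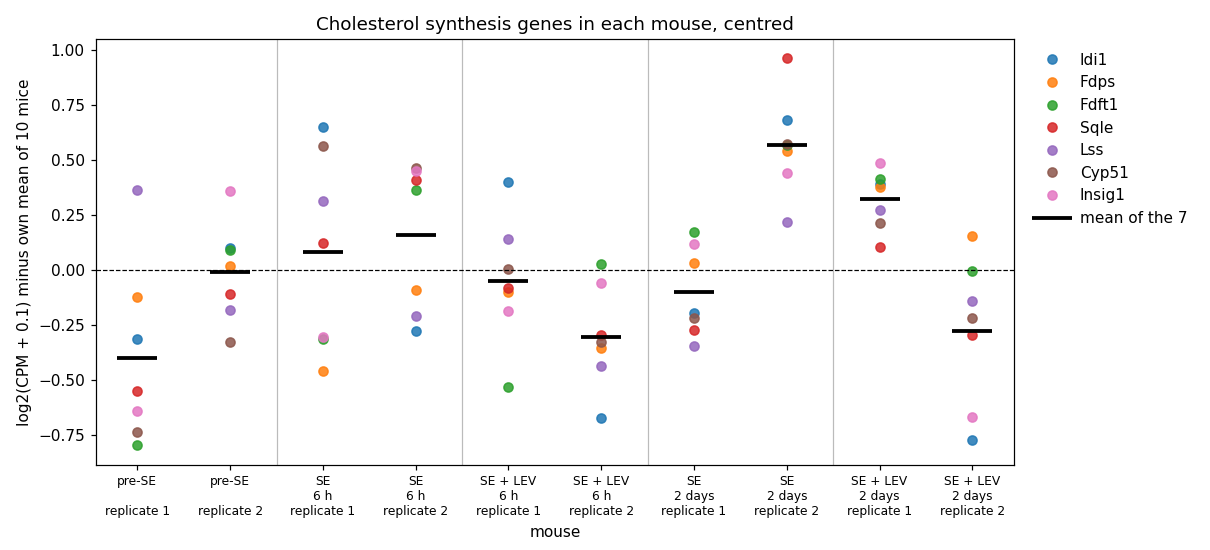
Level of each of the 7 genes in each mouse (log2(CPM + 0.1) minus the gene's own mean over 10 mice); bars are the mean of the 7. The bars run from −0.40 in replicate 1 of pre-SE to 0.57 in replicate 2 of SE 2 days, and mice of 1 group can lie as far apart as 0.672.

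Sums of cell type markers were set beside this mean in the 2 mice of each group. All 10 neuron markers were above 0 in every library, as they would be in any brain tissue, and markers particular to the hippocampus were not examined. *Ttr*, the transthyretin gene that marks choroid plexus, was at 843.42 to 3935.71 CPM in 4 mice (replicate 2 of pre-SE and of SE 6 h, replicate 1 of both SE + LEV groups) and at 4.33 to 55.59 CPM in the other 6. The summed choroid plexus markers, of which 4 of 6 were listed and none was at 0, ran from 122.7 to 2152 CPM in pre-SE, 88.11 to 4812 in SE 6 h, 122.6 to 1327 in SE + LEV 6 h, 71.46 to 124 in SE 2 days and 106.7 to 1799 in SE + LEV 2 days. In 4 of the 5 groups the mouse with the higher choroid plexus sum also had the higher mean of the 7 genes. The same mouse was the higher in 5 of 5 groups for microglia markers, 4 for oligodendrocyte, 3 for astrocyte and infiltrating myeloid, 2 for neuron and blood and 1 for endothelial markers. With 2 mice in a group, unrelated values would also often put the same mouse higher. The microglia sums were nearly tied in SE 6 h (339.1 and 340.9 CPM) and in SE + LEV 6 h (343.3 and 335.5 CPM). Their part in the levels of the 7 genes was not tested. In the 6 mice with little *Ttr*, *Cyp51* was at 33.3 CPM in pre-SE, 82.0 in SE 6 h, 44.2 in SE + LEV 6 h, 47.8 and 82.6 in SE 2 days and 47.8 in SE + LEV 2 days. Apart from SE 2 days, each group had a single such mouse, so its spread cannot be seen. In the pre-SE and the SE 6 h mouse, *Sqle* was at 43.1 and 68.9 CPM, *Idi1* at 26.1 and 51.0 and *Fdft1* at 33.4 and 46.8. *Insig1* was at 40.9 and 51.5 CPM in these mice, *Fdps* at 28.2 and 22.3 and *Lss* at 15.9 and 15.4.

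Oligodendrocyte and astrocyte markers belong to cells that make cholesterol. The summed oligodendrocyte markers (9 listed, none at 0) were 5126 to 5603 CPM in pre-SE, 3548 to 6601 in SE 6 h, 4288 to 5741 in SE + LEV 6 h, 1906 to 2856 in SE 2 days and 3466 to 4718 in SE + LEV 2 days. Astrocyte markers (8 listed, none at 0) summed to 2526 to 3085 CPM in pre-SE and 1602 to 1618 in SE 2 days, a sum carried by the glutamate transporter gene *Slc1a2* at 1547 and 1484 against 786.2 and 808.7 CPM. Of the 8 astrocyte markers, 5 had a negative and 3 a positive logFC at 2 days after SE, as had 52.8% and 47.2% of all genes. The 1 called (5.66% of all genes) was higher: *Aqp4*, the aquaporin gene of astrocyte endfeet, at 37.4 and 33.6 CPM in pre-SE and 89.1 and 124.6 in SE 2 days. Whether these shifts bear on the 7 genes was not tested.

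The rest of the pathway was described with lists of genes. Of 13 other enzymes of cholesterol synthesis, 0 were called in SE against pre-SE or in SE + LEV against SE, at either time. At an unadjusted p under 0.05 limma gave 4 of them higher at 6 h (9.21% of all genes) and 1 higher at 2 days after SE (12.5% of all genes), and 2 lower with LEV at 6 h (3.42% of all genes). At 6 h after SE, 8 of the 13 had a positive logFC, against 40% of all genes, with a median of 0.20. In 6 of them the SE 6 h mice both exceeded the pre-SE mice, as in 18.6% of all genes. *Pmvk*, which encodes phosphomevalonate kinase, was at 35.6 and 54.2 CPM in pre-SE and 71.2 and 117.3 in SE 6 h, with a logFC of 1.06 and an adjusted p of 0.0978 by limma. *Sc4mol*, which encodes the sterol methyl oxidase, was at 122.3 and 196.9 CPM in pre-SE, 269.2 and 347.2 in SE 6 h, 254.7 and 178.4 in SE + LEV 6 h, 160.1 and 360.4 in SE 2 days, and 295.4 and 203.2 in SE + LEV 2 days. Both of its SE 6 h mice were above the pre-SE and the SE + LEV 6 h mice. In 13.4% of all genes tested, both SE + LEV 6 h mice were below both SE 6 h mice. The *Sc4mol* logFC was 0.98 at 6 h (95% interval 0.09 to 1.86; adjusted p of 0.238 by limma) and −0.52 with LEV at 6 h (95% interval −1.41 to 0.37). The lowest logFC of the list at 6 h was −0.67, for *Tm7sf2*, a sterol reductase gene whose SE 6 h mice, at 5.23 and 12.1 CPM, overlapped the pre-SE mice at 8.69 and 18.6. At 2 days after SE, 11 of the 13 enzymes had a positive logFC, against 47.2% of all genes, with a median of 0.19.

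Of the 9 genes of the SREBP machinery, 0 were called in these 4 comparisons, 1 was lower at 6 h after SE (8.51% of all genes) and 1 higher with LEV at 6 h (1.16% of all genes) at an unadjusted p under 0.05 by limma, and their median logFC was −0.11 at 6 h and −0.17 at 2 days after SE. *Srebf2*, encoding SREBP-2, was at 111.8 and 120.5 CPM in pre-SE, 129.1 and 102.0 in SE 6 h, and 133.9 and 167.9 in SE 2 days, so that pre-SE and SE 6 h mice overlapped. *Srebf1*, encoding the SREBP that mainly serves fatty acid synthesis, was at 25.9 and 36.2 CPM in pre-SE and 15.4 and 20.4 in SE 6 h (logFC −0.79, adjusted p of 0.21 by limma). *Insig2*, the paralogue of *Insig1*, was at 72.8 and 54.3 CPM in pre-SE and 88.4 and 54.3 in SE 6 h, with a logFC of 0.14. Among 8 listed genes of uptake and transport, 0 were called and 1 was higher at 2 days after SE at an unadjusted p under 0.05 by limma (12.5% of all genes), and the median was 0.17 for SE 6 h and 0.15 for SE 2 days.

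Called genes of sterol metabolism were found in the list of efflux, storage and turnover, where 1 of 13 was called at 6 h and 2 of 13 at 2 days after SE, all higher, and 0 with LEV. Of all genes, 2.96% and 5.66% were called at these times. Without adjustment, 4 of the 13 were higher and 3 lower at 2 days, against 12.5% and 7.29% of all genes. *Ch25h*, which encodes the enzyme that makes 25-hydroxycholesterol, an oxysterol that binds INSIG proteins and restrains SREBP-2, was at 0.24 and 0.19 CPM in pre-SE, 4.3 and 3.97 in SE 6 h, 1.66 and 0.66 in SE + LEV 6 h, 33.7 and 21.9 in SE 2 days, and 33.7 and 5.42 in SE + LEV 2 days. All mice after SE were above both pre-SE mice. The *Ch25h* logFC was 3.75 at 6 h (95% interval 2.14 to 5.36) and 6.44 at 2 days (95% interval 4.83 to 8.05), with adjusted p of 0.023 and 0.00136 by limma with Benjamini-Hochberg adjustment. The call at 6 h was lost with a pseudocount of 0.5 or 1 and when any 1 of the 4 mice compared was left out, with logFC of 2.08 to 3.87. With LEV at 6 h, both mice were below both SE 6 h mice, as in 13.4% of all genes tested. The *Ch25h* logFC was −1.87 (95% interval −3.48 to −0.26), with an adjusted p of 0.994 by limma. The 0.66 CPM in replicate 2 of SE + LEV 6 h rests on few tags, since 1 tag was worth 0.095 CPM there. *Ch25h* is known from microglia and macrophages. The summed microglia markers were 415.2 to 491.7 CPM in pre-SE, 339.1 to 340.9 in SE 6 h and 1164 to 1564 in SE 2 days. Of 8 markers of infiltrating myeloid cells, 5 were listed, without *Ccr2*, *Ly6c2* and *Arg1*. These 5 summed to 11.4 to 15.1 CPM in pre-SE, 17.5 to 24.7 in SE 6 h and 89.3 to 145.3 in SE 2 days. The highest of them in SE 2 days were *Lyz2*, at 30.1 and 63.2 CPM, and *Msr1*, at 37.8 and 53.3. The part of the microglia and myeloid markers in the *Ch25h* difference was not tested.

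*Apod*, which encodes the lipid-binding apolipoprotein D, was at 67.0 and 122.1 CPM in pre-SE, 75.5 and 152.9 in SE 6 h, 169.1 and 101.6 in SE + LEV 6 h, 471.1 and 730.7 in SE 2 days, and 376.1 and 241.2 in SE + LEV 2 days. It was called at 2 days after SE, with a logFC of 2.70 (95% interval 1.73 to 3.66) and an adjusted p of 0.00579 by limma with Benjamini-Hochberg adjustment. The call was lost without replicate 1 of pre-SE (logFC 2.26, adjusted p 0.0523 by limma) and without replicate 2 of SE 2 days (logFC 2.38, adjusted p 0.0765 by limma). With LEV at 2 days both mice were below both SE 2 days mice, as in 12.2% of all genes tested, with a logFC of −0.96 and an adjusted p of 1 by limma. *Abca1*, the cholesterol exporter, was at 31.1 and 31.7 CPM in pre-SE and 54.2 and 73.8 in SE 2 days, with a logFC of 1.008 that was not called (adjusted p 0.152 by limma). *Cyp46a1*, which encodes the neuronal 24-hydroxylase through which the brain disposes of cholesterol, was at 152.5 and 128.1 CPM in pre-SE and 78.2 and 85.2 in SE 2 days, with a logFC of −0.78 that was not called (adjusted p 0.171 by limma). The summed neuron markers were at least 9320 CPM in pre-SE and 5217 to 6417 in SE 2 days, and their part in the *Cyp46a1* difference was not tested.

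**Figure D4:**
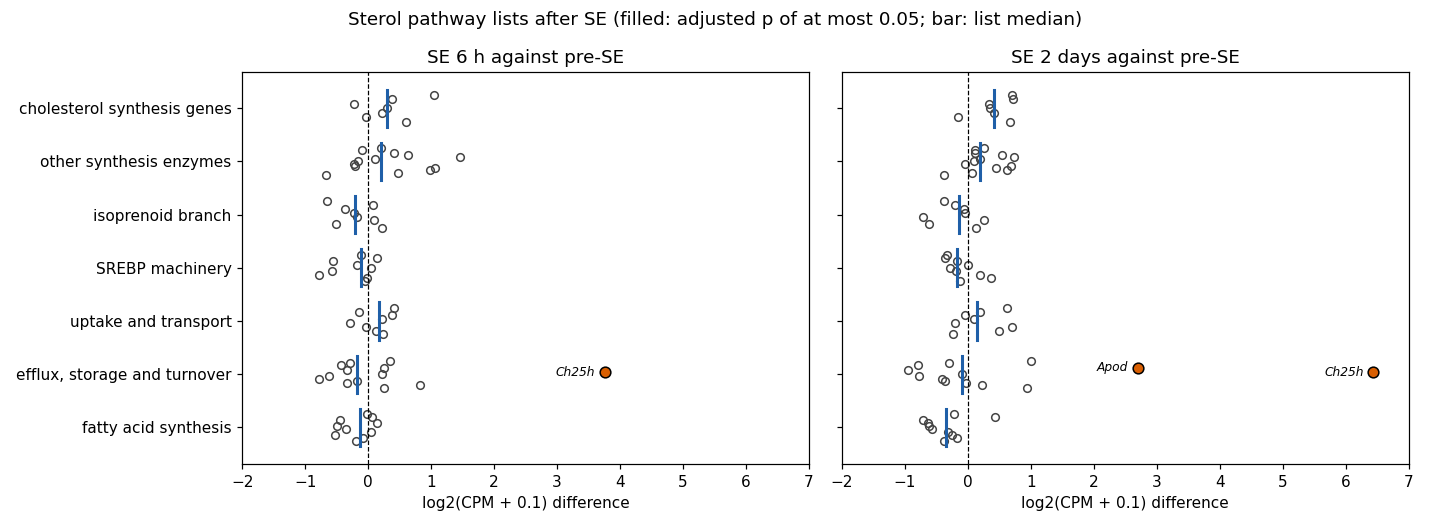
Differences (logFC, log2(CPM + 0.1) scale) of single genes against pre-SE mice, by list, in SE 6 h and SE 2 days mice; open points were not called, filled points had an adjusted p of at most 0.05 by limma, and bars are list medians. Filled are *Ch25h* at 3.75 and 6.44 and *Apod* at 2.70, and the 7 cholesterol synthesis genes are open, with medians of 0.29 and 0.42.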

How the data were processed

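Whole hippocampi of 10 mice, 2 in each of 5 groups, were analysed. The authors mapped CAGE tags to mm9 with BWA (0.7.17) and remaining tags with HISAT2 (2.0.5), built clusters of tags with RECLU without those under 0.1 CPM, and deposited a table of CPM per gene with 2 decimals, scaled to the same total in each library. The step from clusters to genes is not given in the sources used here. Because each value is a multiple of 1 tag, depth could be estimated, and 99.994% to 100% of values were whole multiples within rounding (0.005 CPM). Groups and replicate numbers came from the labels.

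limma 3.58.1 in R 4.3.3 was fitted to log2(CPM + 0.1), which understates changes of low genes, with 5 group means, a mean-variance trend and two-sided moderated tests. It was also run on simulated data in which all genes shared 1 dispersion and 1 group was changed. That run cannot show its errors for genes with unequal spreads. 9 comparisons were made. Genes named were the 7 genes, pathway genes called in SE against pre-SE or SE + LEV against SE, *Srebf2*, *Srebf1*, *Insig2*, *Abca1*, *Ch25h* and *Cyp46a1*, and the 10 most and 5 least like in pattern. *Pmvk*, *Tm7sf2*, *Stard4*, *Sc4mol* and *Hsd17b7* were named after their values were seen. Some genes that this rule names are not reported here. The genes described, the lists and the tests were chosen with earlier results of these data known. Promoter windows are from RefSeq, placed in mm9 by sequence. Alternatives were pseudocounts of 0.01, 0.5 and 1, other filters, rescaling, a replicate block, no trend, a fit of the compared groups, and each mouse left out. Python 3.11.15, numpy 2.4.6, pandas 2.3.3 and matplotlib 3.10.9 made tables and figures.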

Additional observations from a re-analysis of the deposited data

Results flagged for a closer look

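The difference in *Apod* between SE mice at 2 days and at 6 h was itself tested, and the logFC against pre-SE mice was larger at 2 days by 2.45 (95% interval 1.48 to 3.41, adjusted p of 0.0133 by limma with Benjamini-Hochberg adjustment), with both SE 2 days mice, at 471.1 and 730.7 CPM, above both SE 6 h mice, at 75.5 and 152.9.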

How the results depend on the processing

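The count of 0 called among the 7 genes did not change in any of the 9 comparisons under any alternative run, and at an unadjusted p under 0.05 the count ran from 0 to 2. The lowest adjusted p under any alternative was 0.0526 by limma, for *Sqle* at 2 days after SE. Of the 28 differences of these genes in the 4 main comparisons, 19 changed sign under at least 1 alternative. When each mouse was left out in turn, the lone mouse was assumed to vary like the other groups. The logFC that changed sign then ran, for SE 6 h against pre-SE, from −0.22 to 0.90 for *Abca1*, −0.26 to 0.76 for *Apod*, −0.0635 to 0.83 for *Fdft1*, −0.17 to 0.76 for *Idi1*, −0.29 to 0.71 for *Insig1*, −0.21 to 0.49 for *Insig2*, −0.31 to 0.23 for *Lss* and −0.19 to 0.15 for *Srebf2*. For SE 2 days against pre-SE they ran from −0.0916 to 0.79 for *Idi1*, −0.0818 to 0.92 for *Insig1*, −0.44 to 0.13 for *Lss* and −0.0459 to 0.44 for *Srebf1*. For SE + LEV 6 h against SE 6 h they ran from −0.22 to 0.79 for *Apod*, −0.62 to 0.0591 for *Fdft1*, −0.14 to 0.23 for *Fdps*, −0.86 to 0.22 for *Idi1*, −0.57 to 0.19 for *Insig1* and −0.49 to 0.0895 for *Lss*, and for SE + LEV 2 days against SE 2 days from −2.30 to 0.31 for *Ch25h*, −0.57 to 0.22 for *Cyp51*, −0.37 to 0.0451 for *Fdft1*, −0.27 to 0.24 for *Fdps*, −1.02 to 0.15 for *Idi1*, −0.95 to 0.21 for *Insig1*, −0.15 to 0.41 for *Lss* and −1.06 to 0.18 for *Sqle*. Rescaling by the median of gene-wise ratios changed the sign of *Lss* (0.09) and *Srebf2* (0.11) in SE 6 h against pre-SE and of *Fdps* (−0.011) in SE + LEV 6 h against SE 6 h. It moved the split of called genes in SE 2 days against SE 6 h from 498 higher and 176 lower to 387 higher and 218 lower.

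Replicate number as a block left 0 of the 7 genes called, with 373 genes called higher and 29 lower at 6 h and 715 higher and 89 lower at 2 days after SE, in place of 437 and 32 and of 803 and 94. Same-numbered mice are different animals, and their deviations correlated by 0.34, 0.06, 0.15 and −0.18 in the 4 main comparisons, so the numbers were not taken to pair the mice. With the numbers crossed in 1 group, an alternative added after the data were seen, 0 of the 7 genes were called in SE + LEV 2 days against SE 2 days and against pre-SE. Leaving out 1 of the mice compared lowered the calls among all genes to 113 to 191 at 6 h and 248 to 795 at 2 days after SE, and gave 0 to 11 for SE + LEV 6 h against SE 6 h, where other settings gave 0 to 9. For SE + LEV 6 h against pre-SE the calls were 0 to 16 without 1 compared mouse and 14 to 59 otherwise, for SE + LEV 2 days against pre-SE 106 to 637 and 0 to 599, for SE + LEV 2 days against SE + LEV 6 h 41 to 478 and 97 to 372, and for SE 2 days against SE 6 h 160 to 189 and 547 to 763. Without 1 compared mouse the median logFC of the 7 genes ran from 0.0855 to 0.71 at 6 h and 0.0842 to 0.90 at 2 days after SE, and with LEV from −0.57 to −0.26 at 6 h and −0.53 to 0.18 at 2 days. It ran from −0.38 to 0.50 for SE 2 days against SE 6 h, −0.24 to 0.36 for SE + LEV 6 h against pre-SE, 0.0347 to 0.50 for SE + LEV 2 days against pre-SE, and −0.0538 to 0.53 for SE + LEV 2 days against SE + LEV 6 h. The cause was not tested. Count tests on tags recovered from the rounded CPM values were planned and not run. With 2 mice a group, differences smaller than the reach of the intervals given could not be told from the spread between mice.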

Other observations

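2 neighbouring branches of the pathway were described by the same means. Of 8 genes that carry isoprenoids towards ubiquinone, dolichol and prenylated proteins, 0 were called after SE or with LEV, 1 was lower at 2 days after SE at an unadjusted p under 0.05 by limma (7.29% of all genes), and their median logFC was −0.20 at 6 h and −0.13 at 2 days after SE. Of 10 genes of fatty acid synthesis, 0 were called, with 3 at an unadjusted p under 0.05 by limma at 2 days after SE, all lower, against 7.29% of all genes. At that time 9 of the 10 had a negative logFC, as had 52.8% of all genes, and the median was −0.34 beside −0.03 over all genes. Both SE 2 days mice were below both pre-SE mice in 8 of the 10, and in 25.6% of all genes tested. With LEV at 2 days, 7 of these 10 had a positive logFC against SE 2 days mice, as had 55.4% of all genes. Their median was 0.27 beside 0.04 over all genes. Oligodendrocyte markers lay in the same directions, with a median logFC of −1.09 and 9 of 9 negative at 2 days after SE, and a median of 0.78 with LEV at 2 days. Their part in the values of the fatty acid genes was not tested.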
